A study of Mus musculus with 127 samples.

Results

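The expression of 10 genes for histone variants and high mobility group (HMG) chromatin proteins was followed in single cells from the marrow of wild-type mice of strain C57BL/6, 127 cells in all. The genes were chosen by name and not by a rule on their values, although earlier results of these data were known. They were H2afz, H2afx, H2afy, H3f3a, H3f3b, Hmgb1, Hmgb2, Hmgn1, Hmgn2 and Hmga1, and all 10 were found among the 23946 genes of the deposited table. Hindlimbs were crushed to free the marrow, cells bearing CD117 (the Kit receptor) were enriched on magnetic beads, and a population named GMP-P in the labels was sorted into 3 gates. The gates were CD11b+ Ly6g high (46 cells), CD11b+ Ly6g low (41 cells) and CD11b+ (40 cells), where Ly6g marks granulocytes and CD11b is a myeloid integrin. Every cell carried the wild-type genotype, and the labels give no treatment. Age and sex were not in the labels used here, and neither was the number of mice. Values are in TPM, a share of transcripts corrected for transcript length that sums to about the same total in each cell, so levels can be compared between genes. A gene was counted as detected in a cell at 1 TPM or more.

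Nucleosomes are built from core histones, most of which are made during DNA replication from intronless gene clusters. Histone variants are instead encoded by genes outside these clusters, and most, though not all, are transcribed throughout the cell cycle. They are placed into chromatin by chaperones. H2A.Z (H2afz) lies at promoters, H2A.X (H2afx) is the form phosphorylated at DNA breaks, and macroH2A1 (H2afy) lies in repressed chromatin. H3.3 (H3f3a and H3f3b) lies at transcribed genes and regulatory elements. HMG proteins bind DNA or nucleosomes without being part of the nucleosome core: HMGB proteins bend DNA, HMGN proteins bind nucleosomes and loosen compact chromatin, and HMGA1 binds AT-rich DNA through its AT hooks. Mki67 encodes Ki-67, a protein of proliferating cells that coats mitotic chromosomes, and its level was used as the proliferation reference.

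H3.3 is made from a pair of genes whose coding sequences are shown first, because the comparison of H3f3a with H3f3b rests on reads that can tell them apart. The reference coding sequences of build GRCm38 (GENCODE) are each 411 bases long and differ at 95 bases in 83 codons, of which 0 change the amino acid, so both genes encode the same protein. The longest stretch shared without a difference was 23 bases, shorter than the 150 bp reads named in the labels. By contrast, Gm12657, a processed pseudogene on chromosome 4, differs from H3f3a at 6 of 411 bases (98.5% identity) and shares a run of 148 bases with it. Bases 1 to 150 are printed from the start codon. Capitals in H3f3a (chromosome 1) and H3f3b (chromosome 11) mark the 32 positions at which these genes differ, and capitals in Gm12657 mark its 4 differences from H3f3a.
H3f3a: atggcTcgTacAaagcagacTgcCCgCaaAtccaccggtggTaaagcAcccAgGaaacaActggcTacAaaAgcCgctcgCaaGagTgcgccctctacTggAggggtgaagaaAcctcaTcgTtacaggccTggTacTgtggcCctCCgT
H3f3b: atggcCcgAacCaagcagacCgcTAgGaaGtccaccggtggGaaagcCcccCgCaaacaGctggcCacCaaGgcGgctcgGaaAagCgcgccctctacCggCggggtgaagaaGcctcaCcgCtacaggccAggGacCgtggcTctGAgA
Gm12657: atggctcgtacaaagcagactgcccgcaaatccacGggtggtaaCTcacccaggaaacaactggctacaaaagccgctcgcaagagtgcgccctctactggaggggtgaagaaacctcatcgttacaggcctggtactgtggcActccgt

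Promoters of 9 of the 10 members, all but H2afx, were matched by symbol or synonym in RefSeq (GRCm38.p6), each as 300 bases around the start site. They are shown for Hmgb2 beside Mki67, whose levels were related over cells, and for the H3.3 pair, whose levels were not. The sequences are on the gene's strand. Capitals mark matches, on either strand, to CCAAT, to the cell cycle homology region (CHR, TTTGAA or TTCGAA) and to E2F sites (TTTCCCGC, TTTCGCGC, TTTGCCGC or TTTGGCGC). TATAAA and GGGCGG were searched in the same way and are not in capitals.
Hmgb2 (chr8:57511593-57511892, + strand): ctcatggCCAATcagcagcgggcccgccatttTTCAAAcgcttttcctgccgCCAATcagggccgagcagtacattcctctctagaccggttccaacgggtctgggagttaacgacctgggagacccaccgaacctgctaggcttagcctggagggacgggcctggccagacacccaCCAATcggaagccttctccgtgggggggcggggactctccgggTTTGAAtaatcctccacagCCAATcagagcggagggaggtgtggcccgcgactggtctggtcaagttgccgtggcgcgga
Mki67 (chr7:135716330-135716629, - strand): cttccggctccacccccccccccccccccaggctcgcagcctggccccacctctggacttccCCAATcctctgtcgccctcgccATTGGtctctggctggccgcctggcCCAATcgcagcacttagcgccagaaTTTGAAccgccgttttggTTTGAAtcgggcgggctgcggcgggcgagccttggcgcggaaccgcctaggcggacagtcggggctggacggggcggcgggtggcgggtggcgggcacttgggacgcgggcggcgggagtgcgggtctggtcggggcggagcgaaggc
H3f3b (chr11:116024455-116024754, - strand): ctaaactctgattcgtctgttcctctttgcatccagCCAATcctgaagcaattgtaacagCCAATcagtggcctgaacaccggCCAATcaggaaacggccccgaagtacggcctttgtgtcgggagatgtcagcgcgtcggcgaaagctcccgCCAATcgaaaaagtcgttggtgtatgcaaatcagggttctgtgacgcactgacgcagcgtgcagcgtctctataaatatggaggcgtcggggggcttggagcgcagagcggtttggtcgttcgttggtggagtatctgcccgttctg
H3f3a (chr1:180813556-180813855, - strand): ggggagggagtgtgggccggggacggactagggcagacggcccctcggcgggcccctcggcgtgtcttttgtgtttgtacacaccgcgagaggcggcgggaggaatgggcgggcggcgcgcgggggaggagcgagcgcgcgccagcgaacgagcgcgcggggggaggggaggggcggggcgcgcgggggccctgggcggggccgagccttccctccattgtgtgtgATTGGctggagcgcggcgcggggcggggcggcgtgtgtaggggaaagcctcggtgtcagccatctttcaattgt
The Hmgb2 promoter held 4 CCAAT and 2 CHR matches and that of Mki67 held 3 and 2. One CHR of Hmgb2 lay at -30 to -25 from the start site, and both of Mki67 lay between -116 and -93. H3f3b held 4 CCAAT matches and a TATAAA at -27 to -22, whereas H3f3a held 1 CCAAT and 6 GGGCGG matches, some of which overlapped. Of the 32851 mouse promoters in the table, 37.4% held a CCAAT, 19.2% a CHR, 13.6% a TATAAA, 35.7% a GGGCGG and 2.26% an E2F match. Among the 9 matched members, Hmgb2 was the 1 with a CHR match and 0 held an E2F match. These matches describe letters in the windows and say nothing of binding.

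Each gate was treated as 1 sample, since no animal was named, so differences between gates and between classes have no replicate check and no p-value. Cells had a median of 1695 (Ly6g high), 2521 (Ly6g low) and 2464.5 (CD11b+) genes detected, and 30, 38 and 35 cells had at least 1500 genes. The submitters gave each cell 1 of 11 class names, among which Myelo-2 held 72 cells, Myelo-4 16, Myelo-3 9, HSCP-2 7, Gran-2 6, Myelo-1 5, Mono 5, Gran-1 4 and MDP, Eryth and Multi-Lin 1 each. The 4 Myelo classes made up 102 cells with a median of 2035 genes detected, and the other 7 classes 25 cells with a median of 3833. Genes of the list named specific granule were abundant. The list was broad and also held S100a8, S100a9, Lyz2, Cybb and Anxa1. Of its 18 genes, 16 were in the table, and all 16 were found in at least 25% of the cells of every gate. Their median summed level was 584206, 544825 and 235064 TPM in Ly6g high, Ly6g low and CD11b+ cells. Chil3 was listed under another name (Chi3l3), so it was in neither this sum nor the later removal of granule genes. Progenitor markers summed to medians of 0.2, 8.67 and 63.3 TPM. Monocyte markers summed to medians of 1780, 2190 and 1324 TPM, with 2, 2 and 3 of the 10 listed genes found in at least 25% of the cells. The lists for erythroid, megakaryocyte, basophil and mast, B, and T and NK cells had medians of 0 in each gate. The single MDP cell held 222546 TPM of the 5 basophil and mast cell markers and is called by its class name only. The labels name no plate, and the cell names carry a different prefix in each gate. Gate and capture batch cannot be told apart, and this bears on every comparison of gates below.

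Most members belonged to the abundant transcripts of these cells. By mean level over the 127 cells, Hmgn2 had rank 13 among the 23946 genes at 6589 TPM and H2afz rank 18 at 3870 TPM. H3f3b, Hmgb1, H3f3a and Hmgb2 followed at ranks 55, 66, 74 and 118 with 1349, 1180, 1103 and 757 TPM. H2afy (212 TPM), H2afx (79.8 TPM), Hmga1 (33.2 TPM) and Hmgn1 (15.7 TPM) were at ranks 453, 1157, 2471 and 4118. The 10 genes together took a median of 1.15%, 1.87% and 1.48% of the TPM of Ly6g high, Ly6g low and CD11b+ cells, and 0.0760% to 3.26% of single cells. All cells are drawn in the plot of the members by gate.

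**Figure D1:**
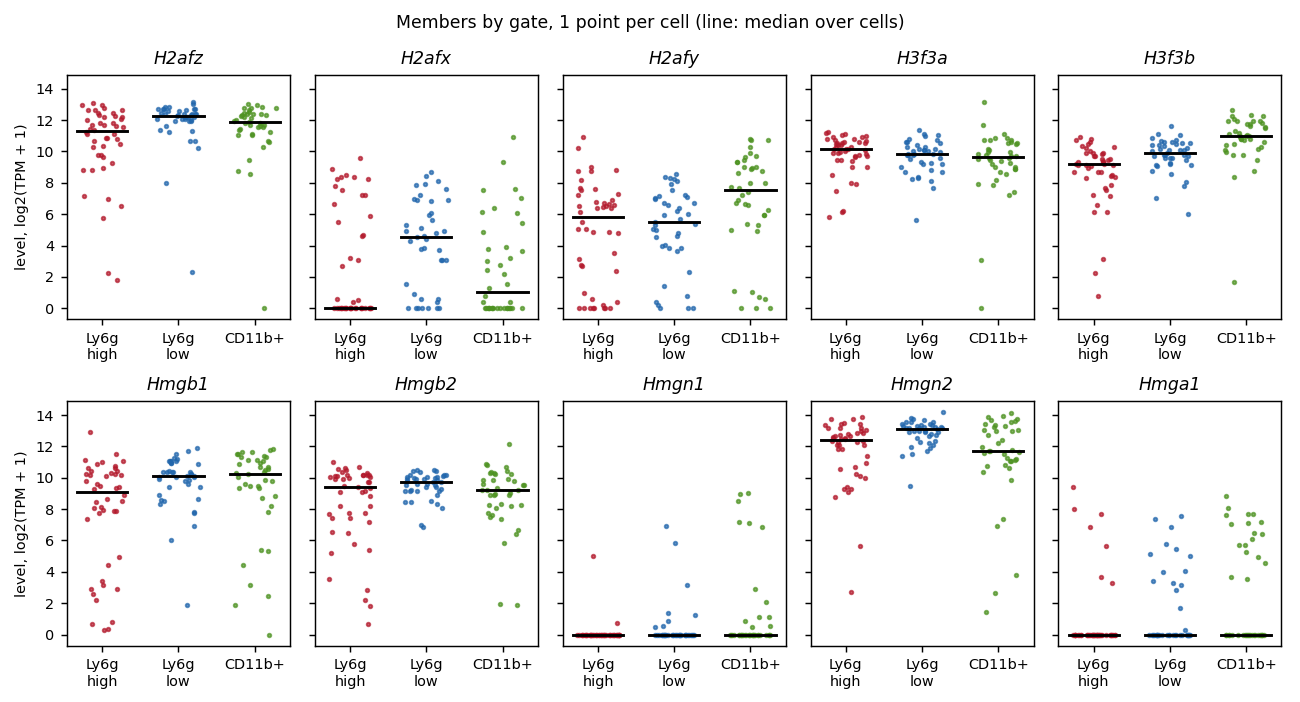
Level of each member in log2(TPM + 1) (y axis) for every cell of the 3 gates (x axis), with 1 point per cell and a line at the median over the cells of a gate. H2afz and Hmgn2 are high in nearly every cell, H2afx, Hmgn1 and Hmga1 are listed at 0 in many, and H3f3b has its highest median in CD11b+ cells (2044 TPM).

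Among the H2A variants, H2afz was present in nearly all cells and highest in the Ly6g low gate. In Ly6g high cells the lowest, median and highest levels of H2afz were 2.47, 2526 and 8561 TPM. Ly6g low cells had 4.07, 4840 and 9128 TPM, and CD11b+ cells 0, 3705 and 8341 TPM. The gates overlapped over nearly their whole ranges, and the means of 3009, 4757 and 3952 TPM differed by a log2 ratio of -0.66 for Ly6g high over Ly6g low. Within Myelo-2 cells alone the same ratio was -0.13, with means of 4439 and 4847 TPM.

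H2afx was found in some cells and listed near 0 in the rest. It was detected in 19 of 46 Ly6g high cells (41.3%, exact 95% interval 27 to 56.8), 30 of 41 in the Ly6g low gate (73.2%, 57.1 to 85.8) and 20 of 40 in the CD11b+ gate (50%, 33.8 to 66.2). The lowest level was 0 TPM in each gate, the medians were 0, 22.1 and 1.05 TPM, and the highest were 758, 408 and 1950 TPM. The means were 83.6, 68.5 and 87 TPM, in another order than the detected shares. Of the CD11b+ sum of H2afx, 56% came from cell 32 of class Myelo-3, and the mean without it was 39.3 TPM. That cell, with 1811 genes detected, also held the highest H3f3a (9030 TPM) and Hmgb2 (4647 TPM) of all cells, beside 934 TPM of Mki67.

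H2afy had its highest median and mean in the CD11b+ gate. Its lowest, median and highest levels were 0, 58 and 1967 TPM in the Ly6g high gate, 0, 43.7 and 373 TPM in the Ly6g low gate and 0, 185 and 1754 TPM in the CD11b+ gate. At least 100 TPM of H2afy was found in 15, 14 and 24 cells of these gates. The log2 ratio of the means was 2.12 for CD11b+ over Ly6g low (395 against 89.8 TPM) and 1.29 for CD11b+ over Ly6g high (161 TPM). Among Myelo-2 cells it was 0.98 and -0.09, so the second difference was not found within that class. Outside the Myelo classes H2afy was higher, with a median of 493 TPM in the other 7 classes (25 cells) against 44.4 TPM in the 4 Myelo classes (102 cells). Its class means were 878 TPM in Mono, 869 TPM in Gran-1, 708 TPM in HSCP-2 and 381 TPM in Gran-2, against 95.6 TPM in Myelo-2 and 63.9 TPM in Myelo-4. Of the Myelo-4 sum, 68.5% came from cell 46 of the CD11b+ gate (700 TPM), and without it the Myelo-4 mean was 21.5 TPM. That cell also held the highest sum of monocyte markers of all cells (14067 TPM) and is called by its class name only. The number of genes detected was higher in the other 7 classes too (3833 against 2035 in the median), and its part in the difference was not tested. Over all 127 cells the Spearman rho of H2afy with the number of genes detected was 0.62.

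The genes for H3.3 differed from each other in their distribution. H3f3a was at like levels in the gates, with lowest, median and highest values of 56.4, 1135 and 2371 TPM in the Ly6g high gate, 47.5, 908 and 2655 TPM in the Ly6g low gate and 0, 801 and 9030 TPM in the CD11b+ gate. H3f3b stood at 0.74, 581 and 1974 TPM in the Ly6g high gate, 64.3, 938 and 3229 TPM in the Ly6g low gate and 2.23, 2044 and 6323 TPM in the CD11b+ gate. Between CD11b+ and Ly6g high cells the log2 ratio was 1.88 for H3f3b (means of 2433 and 661 TPM) and -0.02 for H3f3a (1143 and 1156 TPM). Within Myelo-2 cells these ratios were 1.44 and -0.03. Leaving out the highest cell of each gate changed the H3f3b means to 2333 and 631 TPM.

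H3f3b exceeded H3f3a in 13 of 46 Ly6g high cells (28.3%, exact 95% interval 16 to 43.5), 26 of 41 in the Ly6g low gate (63.4%, 46.9 to 77.9) and 33 of 40 in the CD11b+ gate (82.5%, 67.2 to 92.7). Among Myelo-2 cells the counts were 7 of 27, 18 of 31 and 12 of 14. H3f3b gave 36.4%, 51.5% and 68% of the summed H3.3 TPM of the gates. In the 5 HSCP-2 cells of the CD11b+ gate its share was 93.1%, with H3f3b at 4354, 6323, 2069, 3983 and 3879 TPM and H3f3a at 0, 231, 291, 481 and 517 TPM in cells 21, 29, 39, 43 and 44. H3f3b was the higher of the pair in all 5. In the 4 Gran-1 cells it was higher in 1. Over the 127 cells, the levels of H3f3a and H3f3b had a Spearman rho of -0.06, the lowest of H3f3a with any member. Gm12657 was detected in 63%, 61% and 60% of the cells of the gates, with means of 31.4, 20.9 and 53.9 TPM. It was also the gene most alike to H3f3a over cells (rho 0.42), and reads of these near-identical sequences may have been divided between them.

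**Figure D2:**
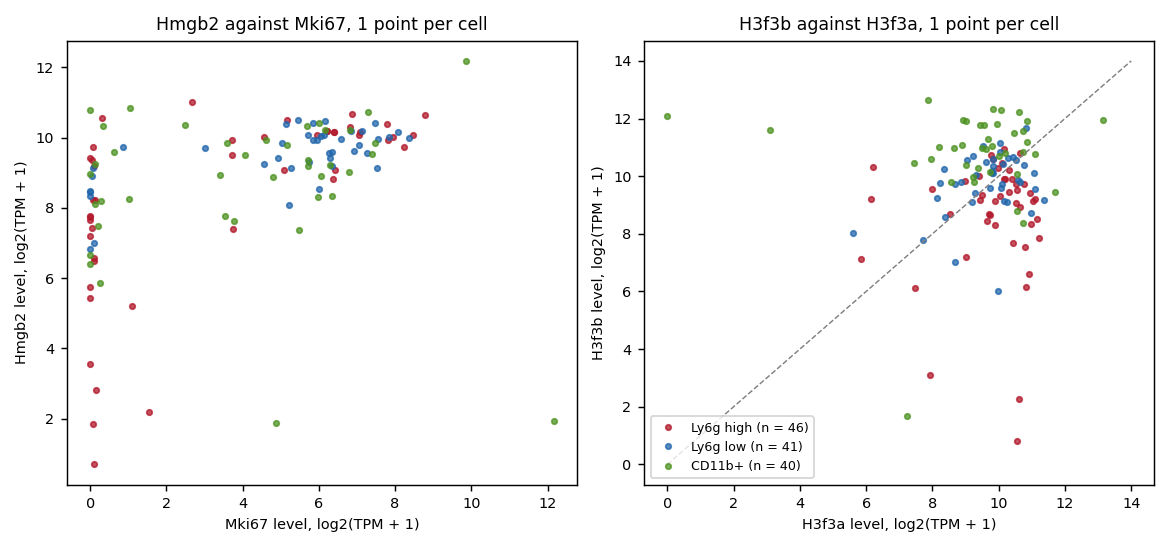
Left, Hmgb2 against Mki67 and right, H3f3b against H3f3a, both axes in log2(TPM + 1), with 1 point per cell colored by gate and a dashed line of equal levels on the right. Cells without Mki67 spread down to low Hmgb2 (rho 0.54 over 127 cells), and CD11b+ cells lie mostly above the line (33 of 40).

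The HMGB genes were detected in nearly all cells. Hmgb1 had lowest, median and highest levels of 0.24, 561 and 7652 TPM in the Ly6g high gate, 2.71, 1102 and 3754 TPM in the Ly6g low gate and 0, 1232 and 3599 TPM in the CD11b+ gate. Its highest value was in an HSCP-2 cell of the Ly6g high gate (cell 85), in which Hmgb2 was at 0.62 TPM. At least 100 TPM of Hmgb1 was found in 34 of 46, 39 of 41 and 33 of 40 cells. Hmgb2 stood at 0.62, 670 and 2059 TPM in the Ly6g high gate, 113, 839 and 1459 TPM in the Ly6g low gate and 2.70, 588 and 4647 TPM in the CD11b+ gate. Its spread was narrowest in Ly6g low cells, where the SD of log2(TPM + 1) over cells was 0.85, against 2.62 in Ly6g high and 2.06 in CD11b+ cells. By class the paralogs differed: in the 25 cells outside the Myelo classes the median was 2267 TPM for Hmgb1 and 470 TPM for Hmgb2, and in the 102 Myelo cells 743 and 841 TPM. These sets of cells also differed in the number of genes detected (medians of 3833 and 2035), and its part was not tested.

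Of the HMGN genes, Hmgn2 was the most abundant member and Hmgn1 the least. Hmgn2 was detected in every cell, at 5.58, 5373 and 14929 TPM (lowest, median, highest) in the Ly6g high gate, 727, 8994 and 18817 TPM in the Ly6g low gate and 1.71, 3397 and 18054 TPM in the CD11b+ gate. Among the classes with at least 4 cells its mean was highest in Myelo-1 (10271 TPM) and Myelo-2 (8756 TPM) and lowest in HSCP-2 (965 TPM). The CD11b+ median thus covered distinct levels, since the 14 Myelo-2 cells of that gate had a median of 10734 TPM. Mouse Hmgn2, like Hmgb1 and H2afz, has many processed pseudogenes, so its reads may be shared with copies and its absolute level is uncertain.

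Hmgn1 was detected in 1 of 46 Ly6g high cells, 5 of 41 Ly6g low cells and 10 of 40 CD11b+ cells (2.17%, 12.2% and 25%), and its median was 0 in each gate. It was found in 4 of the 102 Myelo cells (3.92%, exact 95% interval 1.08 to 9.74) and in 12 of the 25 other cells (48%, 27.8 to 68.7). The median number of genes detected was 2035 in the Myelo cells and 3833 in the other cells, and its part in this split was not tested. The highest Hmgn1 values were 512 TPM in a Gran-1 cell, 500 TPM in an HSCP-2 cell, 359 TPM in the Eryth cell and 145 TPM in the Multi-Lin cell. Hmgn1 and Hmgn2 had the lowest rho of the 45 pairs of members, at -0.21 over 127 cells. Most Hmgn1 values were 0, so this rho is not read as a relation.

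**Figure D3:**
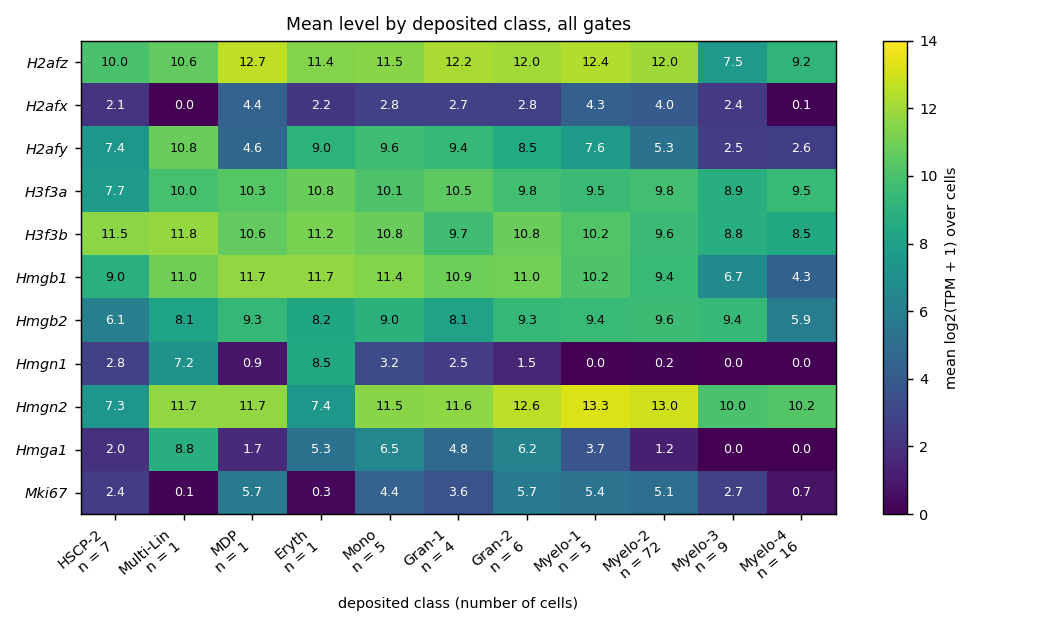
Mean level in log2(TPM + 1) (color and printed value) of the members and Mki67 (rows) in each deposited class (columns, with the number of cells), over all gates. Hmgn1 is at or near 0 in Myelo-1, Myelo-2, Myelo-3 and Myelo-4, and Hmga1 is at 0 in Myelo-3 and Myelo-4. H2afx, Hmgb1, Hmgb2 and Mki67 have low means in Myelo-4.

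Hmga1 was detected in 7 of 46 Ly6g high cells (15.2%), 14 of 41 Ly6g low cells (34.1%) and 18 of 40 CD11b+ cells (45%), with medians of 0 and highest values of 670, 186 and 454 TPM. Cell 92 of class Myelo-2 held 50.6% of the summed level of the Ly6g high gate, and the mean was 28.8 TPM with it and 14.5 TPM without it. By class, Hmga1 was found in 5 of 5 Mono, 6 of 6 Gran-2, 3 of 4 Gran-1 and 4 of 5 Myelo-1 cells, but in 16 of 72 Myelo-2, 0 of 9 Myelo-3 and 0 of 16 Myelo-4 cells. The median number of genes detected in these classes, in the same order, was 4679, 4315.5, 3678, 3514, 2239.5, 1282 and 1409. Its part in the class counts was not tested. As for any gene with near-identical copies, reads may have been divided in counting, so the levels of Hmga1 are uncertain.

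Between gates, 0 to 4 members differed by 2-fold or more in their means. For Ly6g high over Ly6g low, 9 members were measured (detected in 25% or more of the cells on either side), and 0 were at least 2-fold higher or lower, where 7.96% of 3983 measured genes were higher and 23.7% lower. Their median log2 ratio was -0.24, against -0.29 over all measured genes. With the difference of mean log2(TPM + 1) in place of the ratio of means, 6 of 9 members were at least 2-fold lower and 0 higher, against 39.7% and 1.41% of genes. For CD11b+ over Ly6g low, 4 of 10 members (H2afy, H3f3b, Hmgn1 and Hmga1) were at least 2-fold higher and 0 lower, against 30.3% and 7.83% of 4774 genes, with medians of 0.26 and 0.48. For CD11b+ over Ly6g high, 3 of 10 (H2afy, H3f3b and Hmgn1) were higher and 0 lower, against 44.5% and 6.93% of 4447 genes, with medians of 0.51 and 0.83. Hmgn1 reached the detection minimum only in the CD11b+ cells, where it was higher (25%, against 12.2% in Ly6g low and 2.17% in Ly6g high cells), so its place in these counts follows from the filter and is not read as support. The last pair of comparisons share the CD11b+ cells. Granule genes held a median of 60%, 54.9% and 28.5% of the TPM of Ly6g high, Ly6g low and CD11b+ cells. With these genes removed and the rest rescaled, the members' median was -0.08 for CD11b+ over Ly6g low (0.05 over all measured genes). It was 0.04 for CD11b+ over Ly6g high (0.26 over all measured genes). At least 2-fold higher were then 3 and 2 of 10 members, and 0 were lower. Among Myelo-2 cells the higher Hmgn1 and Hmga1 of CD11b+ over Ly6g low cells was not found, with Hmgn1 at a log2 ratio of -1.34 and Hmga1 at 0.47, although both were detected in fewer than 25% of the cells on each side and are not counted as measured there. Of the 8 members measured in Myelo-2 cells, 1 (H2afy, log2 ratio 1.07) was at least 2-fold higher and 0 lower in Ly6g high over Ly6g low cells (13.1% and 19.8% of 3911 genes). In CD11b+ over Ly6g low cells 0 were higher and 0 lower (17% and 23.4% of 4063 genes). In CD11b+ over Ly6g high cells 1 was higher (H3f3b, 1.44) and 1 lower (H2afx, -1.56) (23.2% and 19.8% of 3613 genes).

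Within the Ly6g high gate, the 13 Myelo-4 cells had lower levels of most members than the 27 Myelo-2 cells. Of 8 measured members, 6 were at least 2-fold lower and 0 higher, against 45.3% and 13.7% of 3105 measured genes, and the median log2 ratio was -2.28 against -0.75. H2afz had lowest, median and highest levels of 2.47, 785 and 2219 TPM in Myelo-4 and 627, 4304 and 8561 TPM in Myelo-2 cells. Hmgb2 stood at 2.59, 94 and 684 TPM against 10.9, 1068 and 1614 TPM. Hmgb1 stood at 0.24, 9.46 and 404 TPM against 0.60, 1098 and 2915 TPM. The middle of each distribution was thus far apart while the extremes overlapped. Hmgn2 (median 1109 against 7061 TPM) and H2afy (0.97 against 92.9 TPM) were lower as well. H2afx was detected in 0 of 13 Myelo-4 cells (exact upper bound 24.7%) and in 17 of 27 Myelo-2 cells, with a highest Myelo-4 value of 0.48 TPM. It passed the filter only through the Myelo-2 cells, so its place among the 6 lower members follows from the filter.

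The H3.3 genes differed less between these classes. H3f3a was at medians of 1138 TPM in Myelo-4 and 1133 TPM in Myelo-2 cells (log2 ratio of the means -0.04), and H3f3b at 228 and 647 TPM (-0.58). Cell cycle genes were lower in the same cells: Mki67 was detected in 2 of 13 Myelo-4 and 21 of 27 Myelo-2 cells, Top2a, the topoisomerase of mitotic chromosomes, in 0 and 20, and Ccnb1, the cyclin of mitotic entry, in 0 and 14. The number of genes detected was lower too, with a median of 1318 in Myelo-4 and 2030 in Myelo-2 cells. Its part in these differences was not tested. In the cells with at least 1500 genes, 3 Myelo-4 and 23 Myelo-2 cells, the median log2 ratio was -2.68 over 9 measured members. Over all 4354 genes measured in these cells it was -0.92.

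In the CD11b+ gate, the 8 cells of Gran-1 and Gran-2 were set beside the 14 Myelo-2 cells. Of 10 members, 3 were at least 2-fold higher (H2afy, Hmgn1 and Hmga1) and 2 lower (Hmgb2 and Hmgn2), against 55.4% and 11.8% of 6679 measured genes, and the median was -0.11 against 1.26. Hmgn1 and Hmga1 passed the filter only through the Gran cells (37.5% and 87.5% detected, against 7.14% and 21.4%), so their place in the count follows from it. The Hmgn1 ratio rested on cell 42 of Gran-1 (512 TPM). Without the highest cell of each side it was 0.60, H2afx was at -2.44, and 2 members were higher and 3 lower (55.5% and 11.4% of genes). With granule genes removed and the rest rescaled, 3 members were higher and 5 lower (41.5% and 22.2% of 6791 genes). H2afy had a mean of 632 TPM in the Gran cells and 118 TPM in Myelo-2 cells. Hmgn2 was at 5244 and 11401 TPM, and Hmgb2 at 469 and 959 TPM. The Gran classes had more genes detected, with medians of 3678 in Gran-1 and 4316 in Gran-2 against 2259 in Myelo-2, and the part of this in the differences was not tested.

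Some members were related to Mki67 over single cells and others were not. Over the 127 cells the Spearman rho with Mki67 was 0.55 for H2afx, 0.54 for Hmgb2, 0.46 for Hmgn2, 0.44 for Hmgb1 and 0.41 for H2afz. It was 0.18 for H2afy and H3f3b, 0.16 for Hmga1 and 0.11 for H3f3a. Hmgn1, detected in 12.6% of the cells, was under the 25% needed to be counted. Thus 5 of 9 members had a rho of 0.3 or more, against 8% of 3451 genes, and the median was 0.41 against 0.11. Cells of a gate were treated as 1 sample and differ in depth, so these values are given as descriptions without a p-value. For reference, rho with Mki67 was 0.64 for Top2a, 0.39 for Ccnb1, and 0.30 and 0.32 for the replication genes Pcna and Mcm5.

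Detection was also counted in the cells with and without Mki67. H2afx was detected in 62 of the 88 cells with Mki67 and in 7 of the 39 cells without it. Hmga1 was detected in 34 and 5 of these cells, although its rho with Mki67 was low. The same counts were not set beside those of all genes. The part of the number of genes detected in them was not tested, and they are not read as support for a relation. The number of genes detected had a rho of 0.38 with Mki67, 0.65 with Hmgb1, 0.64 with Hmga1, 0.38 with H2afz, 0.34 with H2afx and 0.18 with Hmgb2 and Hmgn2. Given the number of genes, the partial rho with Mki67 was 0.52 for Hmgb2, 0.49 for H2afx, 0.43 for Hmgn2, 0.30 for H2afz and 0.28 for Hmgb1, and between -0.12 and 0.07 for H2afy, H3f3a, H3f3b and Hmga1.

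Across gates the relation was unequal, and differences between gates in rho were not tested. In Ly6g high cells 6 of 8 members reached 0.3 (18.3% of 2426 genes), with Hmgb2 at 0.67 and Hmgn2 at 0.66. In Ly6g low cells 7 of 9 did (16.3% of 3870 genes), with Hmgb1 and Hmgb2 at 0.52. In CD11b+ cells 2 of 10 did (6.47% of 4266 genes), H2afx and Hmgn2 at 0.31 each. The Ly6g high gate held Myelo-2 and Myelo-4 cells, which differed in both Mki67 and the members, and among its 27 Myelo-2 cells rho was 0.45 for Hmgb2, 0.29 for Hmgn2 and 0.06 for H2afz. In that class 1 of 8 members reached 0.3 among the 27 Ly6g high cells (9.97% of 2889 genes), 5 of 8 among the 31 Ly6g low cells (17.9% of 3680) and 2 of 8 among the 14 CD11b+ cells (24.7% of 3007). In the 13 Ly6g high Myelo-4 cells 0 of 7 did (17% of 1659). Over the 72 Myelo-2 cells of all gates, 3 of 8 members were at 0.3 or more (5.61% of 3209 genes), namely Hmgb1 at 0.48, Hmgb2 at 0.40 and H2afx at 0.36. H2afz was at 0.11 there. In CD11b+ cells 65.3% of the Mki67 sum came from the HSCP-2 cell 21, at 4605 TPM, in which Hmgb2 was at 2.80 TPM and H2afx at 655 TPM.

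**Figure D4:**
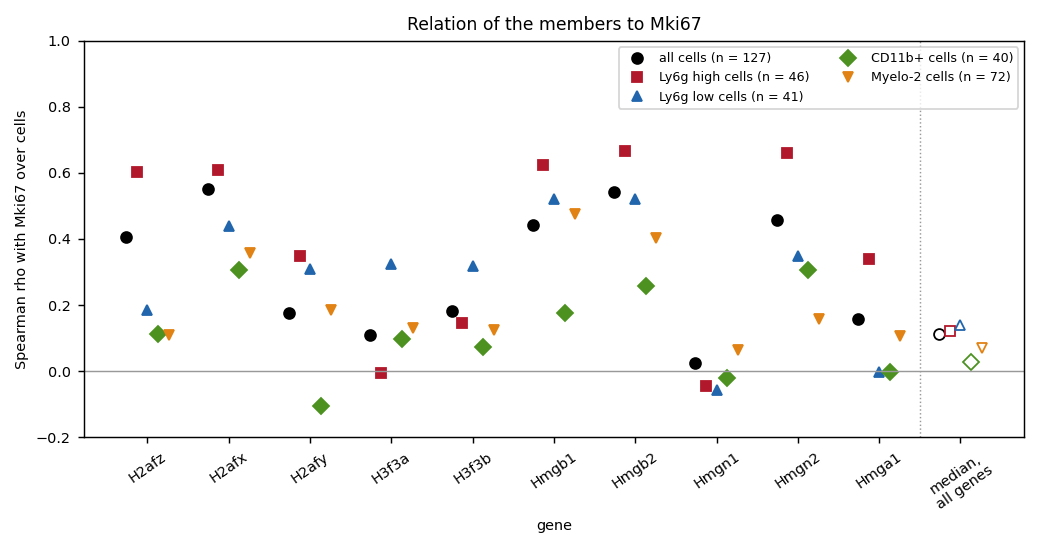
Spearman rho with Mki67 over cells (y axis) for each member (x axis), with filled symbols for all cells, each gate and the Myelo-2 cells, and open symbols for the median over all genes tested in the same cells. H2afx, Hmgb1, Hmgb2 and Hmgn2 lie above the gene medians in each set of cells, and H3f3a lies near them over all cells (0.11 and 0.11).

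The members were also compared with the phases of the cell cycle. The Spearman rho with the mean of the 23 mitosis genes other than Mki67 was 0.66 for H2afx, 0.61 for Hmgb2, 0.53 for Hmgb1, 0.52 for H2afz and 0.47 for Hmgn2. With the mean of 23 S phase genes it was 0.65 for Hmgb1, 0.59 for Hmga1, 0.47 for H2afy and 0.44 for H2afz, but 0.18 for Hmgb2. The order of the members thus differed between the lists, and the members high for S phase were also those with the higher rho with genes detected.

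Among themselves, the members formed no single group. Of 45 pairs, the highest rho values over 127 cells were 0.55 for H2afz with Hmgn2, 0.52 for H2afx with Hmgb2 and 0.50 for Hmgb2 with Hmgn2. H2afy had its highest values with Hmgb1 (0.44) and Hmga1 (0.43). Among 3452 genes, those most alike to Hmgb2 by Spearman rho over 127 cells were Cdca8 (0.57), Nusap1 (0.54) and Mki67 (0.54), and those most alike to H2afx were Hist1h2ao (0.62), Top2a (0.61) and Nusap1 (0.61). Cdca8 encodes a chromosomal passenger protein and Nusap1 a spindle protein. H2afz was most alike to 2810417H13Rik (0.59), Hist1h2ao (0.58) and the tubulin gene Tuba1b (0.58). Hmgn2 was most alike to Fcnb, a specific granule ficolin (0.63), Arhgdib (0.60) and Chil3 (0.58), the last 2 of which had rho of -0.03 and -0.06 with the number of genes detected. Hmgb1 was most alike to Ptma (0.72), Tubb5 (0.70) and Tuba1b (0.70), and H2afy to Ptma (0.63), Ppia (0.62) and Rps20 (0.62), each of which had rho of 0.62 to 0.78 with genes detected. H3f3b was most alike to Gm1821 (0.61), Hsp90aa1 (0.52) and Ptges3 (0.52), and H3f3a, after Gm12657, to Ncapd3 (0.36) and Rrm2 (0.32).

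Other histone and HMG genes were described from lists. Of 8 other histone variants in the table, the most abundant were Cenpa, the centromeric H3 (117, 92.6 and 29.1 TPM in Ly6g high, Ly6g low and CD11b+ cells), H2afv, the H2A.Z paralog (54.8, 94.7 and 66.3 TPM), and H2afj (30.7, 17.1 and 21.5 TPM). Over all cells, rho with Mki67 was 0.47 for Cenpa, 0.54 for H2afv and 0.04 for H2afj. For CD11b+ over Ly6g high Cenpa had a log2 ratio of -1.98, opposite in sign to H2afy and H3f3b. In Myelo-4 over Myelo-2 cells H2afj stood at 1.88, the 1 of 3 measured variants above 0. Among 12 other HMG genes, Hmgb3 was at 53.2, 132 and 87 TPM and had a rho of 0.51 with Mki67, and Hmgn5 was at 24.5, 42.7 and 64.8 TPM with a rho of 0.15.

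Histone chaperones and exchange factors were measured beside their cargo. For CD11b+ over Ly6g high, 22 of 25 were measured and 13 were at least 2-fold higher and 0 lower, with a median log2 ratio of 1.31 against 0.83 for all genes, of which 44.5% were higher and 6.93% lower. Set, an inhibitor of histone acetylation, was at 1454 against 288 TPM (2.33), the nucleolar chaperone Npm1 at 1370.2 against 293 TPM (2.22) and Asf1b, the H3-H4 chaperone of replication, at 470 against 153 TPM (1.61). Nap1l1 and Anp32b had ratios of 0.95 and 0.91. In Myelo-4 over Myelo-2 cells of the Ly6g high gate 12 of 12 measured chaperones were at least 2-fold lower, against 45.3% of all measured genes. The same held for 24 of 24 mitosis and 13 of 13 S phase genes and for 28 of 31 replication-dependent histones. In the Myelo-4 cells only 1 chaperone, 0 mitosis genes, 1 S phase gene and 5 of these histones reached the detection minimum. Most of the genes in these lists were thus measured only through the Myelo-2 cells. Their place among the lower genes follows from the filter and is not read as support. For CD11b+ over Ly6g high, 22 of 23 S phase genes were at least 2-fold higher, while 3 of 24 mitosis genes were higher and 4 lower, against the same 44.5% and 6.93% of all genes. The detection minimum was reached by 23 S phase genes and 22 chaperones in CD11b+ cells, but by 10 and 11 in Ly6g high cells. The rest were measured only through the CD11b+ cells, so their place in the S phase and chaperone counts of this comparison follows from the filter.

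The replication-dependent histones most abundant in the table were Hist1h2ao (739, 770 and 513 TPM in Ly6g high, Ly6g low and CD11b+ cells), Hist1h4d (174, 339 and 143 TPM) and Hist2h2aa1 (168, 160 and 108 TPM). Their transcripts mostly lack the poly(A) tail from which the cDNA kit primes, and their gene copies are near-identical, so these levels are uncertain. Over all cells 19 of 23 tested had a rho of 0.3 or more with Mki67, against 8% of all genes, with a median of 0.41 against 0.11. The members had the same median of 0.41 over 9 genes, and the mitosis list 0.47 over 23.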

How the data were processed

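Per the labels' protocols, cells were lysed on Fluidigm C1 chips, the SMARTer kit gave the cDNA and Nextera XT the libraries. The authors deposited log2(TPM + 1) values of 23946 genes in 127 cells, a unit read from the values, since TPM recovered from them summed to between 999633 and 1005380 in each cell. Bowtie2, RSEM and the build mm9 are named in the submitters' processing notes, with no versions. How the deposited class names were made is not given in the sources used here, and all 127 cells were used without a doublet caller or further clustering. The table had 0 columns without a sample and 0 identical pairs of cells.

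Values were turned back to TPM with Python 3.11.15, numpy 2.4.6, pandas 2.3.3 and scipy 1.17.1, and figures were drawn with matplotlib 3.10.9. Groups of cells were compared as the log2 ratio of mean TPM after adding 1 TPM to each, which understates differences of low genes. Relations over cells are Spearman correlations, and partial ones hold the number of genes detected. Intervals are exact (Clopper-Pearson) at 95% and cover counting error only. Because TPM does not hold the read depth, the number of genes detected stands in for it. Each gate was 1 sample, because the labels name no animal, and no test was run. Steps were tested on simulated data. Capture codes in the cell names were shared by 18 cells of each Ly6g gate. If a code names a position, cells that share it were captured separately, but the labels name no plate.

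The members and gene lists were chosen with earlier results of these data known. The text names all members, the 5 most abundant measured genes of the other histone variant, HMG and chaperone lists (fewer where fewer were measured), 3 replication-dependent histones, 5 cell cycle reference genes and, for members found in at least 50% of the cells, the 3 genes most alike; some of them are given by count only. Reference sequences are of GRCm38, another build than the files, so no mm9 coordinates are given. The alternatives tried were the pseudocount, the filter on low values, the mean of logs, removal of granule genes, the highest cells, cells with few genes, the classes and the detection minimum, and 1 without Myelo-3 cells was added after seeing the data.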

Additional observations from a re-analysis of the deposited data

How the results depend on the processing

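Between gates, values rest on 1 sample per gate, and most ratios of Hmgn1, Hmga1 and H2afx rest on few cells. The cause of each shift below was not tested. With the difference of mean log2(TPM + 1) in place of the ratio of means, which gives cells at 0 more weight, the members' median went from -0.24 to -1.19 for Ly6g high over Ly6g low, from 0.26 to -0.39 for CD11b+ over Ly6g low and from -2.28 to -3.15 for Myelo-4 over Myelo-2 cells. With granule genes removed and the rest rescaled, the median for Gran-1 and Gran-2 over Myelo-2 cells went from -0.11 to -0.99. The median rho with Mki67 went from 0.41 to 0.28 given the number of genes detected, 0.22 in cells with at least 1500 genes, 0.16 in Myelo-2 cells, 0.60 in Ly6g high cells and 0.11 in CD11b+ cells. The median share of cells in which a member was detected went from 97.5% to 84.7% at 100 TPM. For CD11b+ over Ly6g low, Hmgn1 turned to -1.25 in the Myelo classes and -1.34 in Myelo-2 cells, and Hmga1 to -0.49 in the Myelo classes. H2afy for CD11b+ over Ly6g high turned to -0.093 in Myelo-2 cells. Of the other values recomputed, 46 medians and shares and 455 single-gene values moved by less than 1.5-fold, 0.1 in rho or the counting interval, and 141 single-gene values moved by more. No paired analysis was possible because the cell numbers only name cells and the results come from no test.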
